A study of Mus musculus with 9 samples.

Results

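Platelet genes were followed through an array study of castration in C57BL/6 mice, a common inbred strain. The members were 5 genes, Itga2b, Selp, Clec1b, Thbs1 and Pf4, chosen as all array features whose platform annotation gives one of these symbols alone. They account for 9 of the 11552 features and for 5 of the 5827 genes named on the array. Of the 9 features, 8 carried values and all 8 were among the 8885 features tested. The second Itga2b feature had no value on any array and drops out.

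Each array set RNA of a castrated mouse against RNA of a sham-operated mouse of matched age, with Cy5 and Cy3 as the dyes. Surgery, castration or sham, took place at 7 weeks of age. Femur, tibia and humerus were collected, and the labels of all groups give pulverized bone as the source of the RNA. Young bone and young marrow came from mice of 17 weeks, in which the marrow was removed from the bone and hybridized on arrays of its own. The third group, labelled bone marrow, came from mice of 59 weeks and is called old marrow here, although the study's text speaks of separating marrow only for the young mice, so that its bone content is not known. Each group had 3 arrays, each with a different pair of mice. The labels leave unsaid if bone and marrow of the young mice were taken from the same animals. Castration removes testicular hormones from the whole animal, so no cell type was targeted.

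Megakaryocytes are the large cells of the bone marrow that shed platelets into the blood. They load platelets with adhesion receptors for the cell surface and with granules that hold chemokines and sticky matrix proteins, released when a vessel is damaged. Itga2b encodes the alpha subunit of the platelet fibrinogen receptor and is an early marker of the lineage. Selp encodes P-selectin, a granule membrane protein that moves to the surface and binds leukocytes, and is also made by endothelial cells. Clec1b encodes CLEC-2, a receptor for podoplanin. Thbs1 encodes thrombospondin-1, a matrix glycoprotein of platelet granules that other cells also make. Pf4 encodes platelet factor 4, a chemokine of the same granules.

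Megakaryocyte genes are known to be switched on by GATA and ETS transcription factors, so the start regions of the members are shown with the letters of those motifs in capitals. The sequences are those of RefSeq on GRCm38.p6 and run 5′ to 3′ from 250 bases before to 50 bases after the annotated start. GATA stands for AGATAA, with its first letter also T and its last letter also G, and ETS for AGGAAG, with its first letter also C. Both were searched on both strands, and no matches overlapped in these windows. Itga2b lies at chr11:102469834-102470133 on the minus strand, Selp at chr1:164115014-164115313, Clec1b at chr6:129397047-129397346 and Pf4 at chr5:90772185-90772484, all of the last 3 on the plus strand. These windows matched 4 of the 5 members. Thbs1 is named only.
Itga2b: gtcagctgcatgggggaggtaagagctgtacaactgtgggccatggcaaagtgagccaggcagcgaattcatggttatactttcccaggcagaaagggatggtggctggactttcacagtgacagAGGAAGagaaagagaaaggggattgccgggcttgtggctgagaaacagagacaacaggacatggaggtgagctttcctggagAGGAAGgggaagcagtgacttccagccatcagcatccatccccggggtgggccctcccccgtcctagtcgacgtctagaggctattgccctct
Selp: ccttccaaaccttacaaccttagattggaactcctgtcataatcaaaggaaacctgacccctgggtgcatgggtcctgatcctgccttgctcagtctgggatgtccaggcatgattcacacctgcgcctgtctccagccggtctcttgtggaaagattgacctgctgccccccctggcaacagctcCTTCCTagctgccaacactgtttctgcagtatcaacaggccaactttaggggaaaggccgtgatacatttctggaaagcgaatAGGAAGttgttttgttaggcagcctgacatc
Clec1b: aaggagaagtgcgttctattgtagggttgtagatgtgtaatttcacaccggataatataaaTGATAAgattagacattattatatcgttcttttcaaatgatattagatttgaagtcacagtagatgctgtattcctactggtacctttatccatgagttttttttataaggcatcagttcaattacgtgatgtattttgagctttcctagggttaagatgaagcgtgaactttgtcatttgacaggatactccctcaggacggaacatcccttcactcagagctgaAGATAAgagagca
Pf4: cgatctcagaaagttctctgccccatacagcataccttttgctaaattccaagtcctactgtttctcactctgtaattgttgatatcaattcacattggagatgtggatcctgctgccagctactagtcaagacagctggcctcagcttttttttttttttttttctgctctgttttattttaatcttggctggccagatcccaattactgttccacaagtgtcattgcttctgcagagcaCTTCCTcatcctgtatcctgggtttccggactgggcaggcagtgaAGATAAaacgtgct

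The Itga2b window held 2 ETS matches and 0 GATA matches, and so did the Selp window. The Clec1b window held 2 GATA matches and 0 ETS matches, and the Pf4 window held 1 of each. Of 32851 mouse promoter windows of the same length, 29.8% held a GATA match, 46.5% an ETS match and 12.6% both. A match to letters this common is a description of the sequence, and no binding was measured in this study.

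All values below are deposited log ratios, read as log2. The log base is not given in the sources used here. The sign is read as castrated over sham on every array, which is the likely direction because each array is described that way in the labels, and is called the castrated-over-sham reading. The castrated RNA was in Cy5 on 6 arrays and in Cy3 on 3 arrays, the swapped arrays young bone 3, young marrow 2 and old marrow 2. If the ratio were instead Cy5 over Cy3 throughout, the swapped arrays would change sign. That is the channel reading, and its values are printed for many of the results below but not for all. Unless said otherwise, a value is in the castrated-over-sham reading. Ratios carry no level, so the labelled tissues could not be checked against the level of their defining markers. In these bulk tissues fewer cells of a type and less RNA per cell cannot be told apart.

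In young marrow most of the member features stood near the top of the array. Of the 8 member features, 7 had a ratio above 0 on all 3 young marrow arrays, against 20.7% of all features with values there. The exception was the second Pf4 feature. The same was true of 2 member features in young bone, both of Selp (10.1% of all features), and of 2 in old marrow, Itga2b and the first Pf4 feature (15.7% of all features). No member was above 0 on all 9 arrays, where 1.83% of features were, or below 0 on all 9, where 2.33% were. Ranked among the features of its own array, where 100 is the highest ratio, the 7 features other than the second Pf4 feature lay between percentiles 91.2 and 99.8 on the young marrow arrays, with a median of 98.3. In young bone they ranged from 4.9 to 98.3 with a median of 68.2, and in old marrow from 1.2 to 98.7 with a median of 82.5. Leaving the second Pf4 feature out of these ranges was a choice made after its values were seen. On young marrow 2, the swapped array, the same features would stand as far below 0 under the channel reading as they stand above it here.

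**Figure D1:**
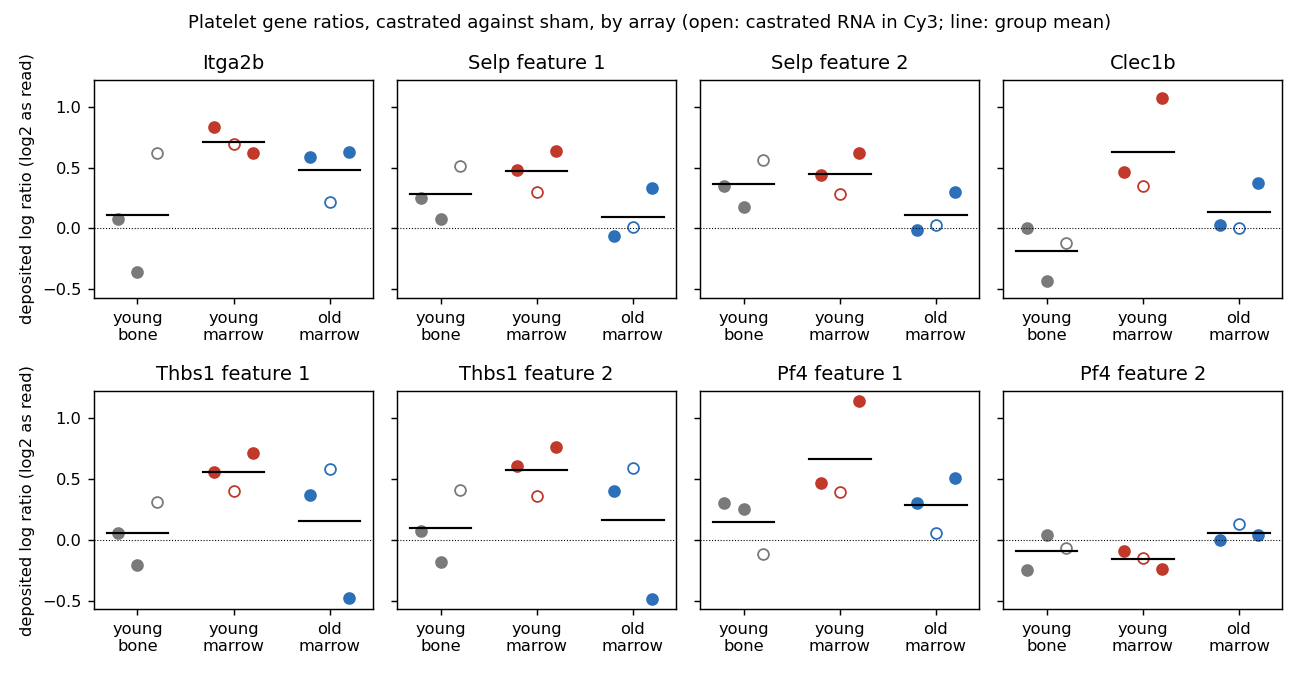
Deposited log ratio of each member feature on each of the 9 arrays, grouped as young bone, young marrow and old marrow, on a log2 scale as read. Filled points are arrays with castrated RNA in Cy5, open points those with it in Cy3, and the line is the mean of 3 arrays. In every panel except that of Pf4 feature 2 the young marrow points lie above 0, and the young bone and old marrow points spread across or near 0 in most panels.

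**Figure D2:**
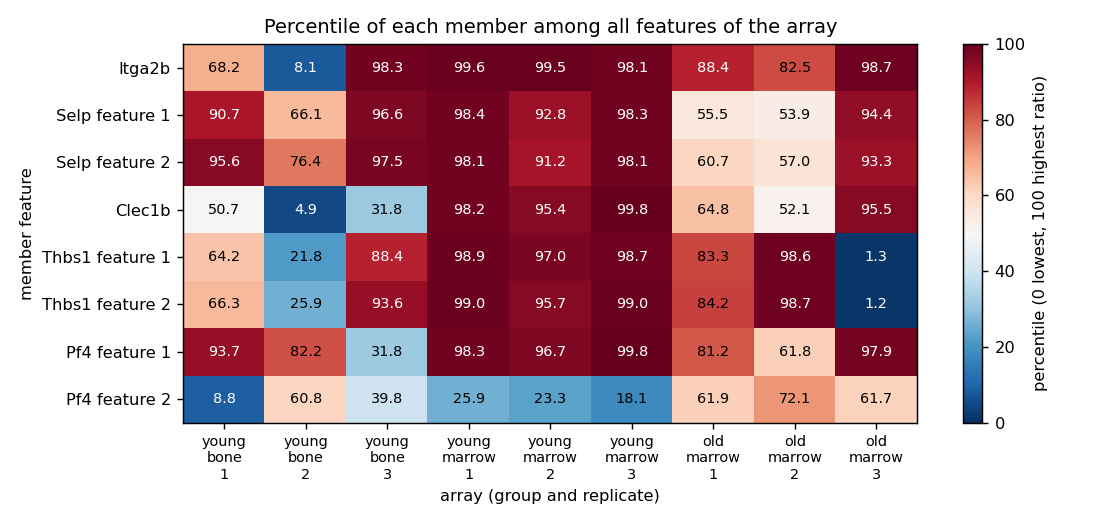
Percentile of each member feature among all features with a value on that array, by array along the horizontal axis, from 0 for the lowest ratio to 100 for the highest. Outside the Pf4 feature 2 row, the 3 young marrow columns hold values from 91.2 to 99.8, whereas young bone 2 holds values as low as 4.9 and old marrow 3 values as low as 1.2.

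Among the adhesion receptors, Itga2b had the highest average. In young marrow its ratios were 0.83, 0.69 and 0.62, in old marrow 0.59, 0.22 and 0.63, and in young bone 0.08, -0.36 and 0.62. The young marrow and old marrow arrays were all above 0 and touched in range, whereas the young bone arrays spanned from below 0 to the level of young marrow, and their highest value came from the swapped array. The group means were 0.71 ± 0.11 (SD, n = 3) in young marrow, 0.48 ± 0.23 (SD, n = 3) in old marrow and 0.11 ± 0.49 (SD, n = 3) in young bone. Averaged over the 3 groups, Itga2b rose by 0.45 (SE 0.10, limma adjusted p = 0.0262, above 0 on 8 of 9 arrays).

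Selp was measured by a pair of features of the same annotated sequence. The first gave 0.48, 0.30 and 0.64 in young marrow, 0.25, 0.08 and 0.51 in young bone, and -0.06, 0.01 and 0.33 in old marrow. The second gave 0.44, 0.28 and 0.62 in young marrow, 0.35, 0.18 and 0.56 in young bone, and -0.01, 0.03 and 0.30 in old marrow. P-selectin was thus the member with ratios above 0 on every young bone array, and its young bone and young marrow ranges overlapped. The features differed by a median of 0.04 over the arrays, close to the 0.05 of all 415 such pairs of the same sequence on the array. Averaged over the 3 groups, the second feature rose by 0.30 (SE 0.07, limma adjusted p = 0.0345, above 0 on 8 of 9 arrays) and the first stood at 0.28 (SE 0.07, limma adjusted p = 0.0582), so that the spots of this gene fell on either side of the threshold of 0.05 with nearly the same estimate.

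Clec1b, the podoplanin receptor, had the widest gap between young marrow and young bone. Its ratios were 0.46, 0.35 and 1.07 in young marrow, 0.00, -0.43 and -0.12 in young bone, and 0.03, 0.00 and 0.37 in old marrow. All 3 young marrow arrays lay above all 3 young bone arrays, and no young bone array was above 0. The group means were 0.63 ± 0.39 (SD, n = 3) in young marrow, 0.13 ± 0.21 (SD, n = 3) in old marrow and -0.18 ± 0.22 (SD, n = 3) in young bone. The highest value, on young marrow 3, lies far from the other marrow arrays. Averaged over the groups Clec1b stood at 0.16 (SE 0.09, limma adjusted p = 0.401) and did not pass.

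Among the granule proteins, Thbs1 was measured by a pair of features that differed by a median of 0.03. The first gave 0.56, 0.40 and 0.71 in young marrow, 0.06, -0.21 and 0.31 in young bone, and 0.37, 0.58 and -0.48 in old marrow. The second gave 0.61, 0.36 and 0.76 in young marrow, 0.07, -0.18 and 0.41 in young bone, and 0.40, 0.59 and -0.49 in old marrow. Thrombospondin-1 was the one member with old marrow arrays near both ends of the ranking, at percentiles 98.6 and 98.7 on old marrow 2 and 1.3 and 1.2 on old marrow 3. Both features agreed on each array, so the split lay between arrays and not between spots. Averaged over the groups they stood at 0.30 (limma adjusted p = 0.153) and 0.32 (limma adjusted p = 0.147). Without old marrow 3 they rose by 0.37 (limma adjusted p = 0.00873) and 0.40 (limma adjusted p = 0.00907). In that fit 574 of the 8885 features passed in the average.

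Pf4 was measured by 2 features annotated to different sequences, and they did not agree. The first gave 0.47, 0.39 and 1.14 in young marrow, 0.30, 0.25 and -0.12 in young bone, and 0.30, 0.06 and 0.51 in old marrow. The second gave -0.09, -0.15 and -0.24 in young marrow, -0.25, 0.04 and -0.07 in young bone, and 0.00, 0.13 and 0.04 in old marrow. In young marrow the first lay at percentiles 96.7 to 99.8 and the second at 18.1 to 25.9, and over the 9 arrays they differed by a median of 0.47 and by up to 1.38. Averaged over the groups, the first feature rose by 0.30 (SE 0.07, limma adjusted p = 0.0446, above 0 on 8 of 9 arrays), while the second stood at -0.06 (SE 0.06, limma adjusted p = 0.726). Which of the spots reports the platelet factor 4 transcript cannot be settled from the ratios, so the statement for this gene holds for 1 of its features.

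The average over the 3 groups thus called 3 of the 8 member features higher, those of Itga2b, Selp and Pf4, and 0 lower. Of all 8885 features, 2.01% were called higher and 2.03% lower. At an unadjusted p under 0.05 by limma, 6 of the 8 member features passed, against 16.2% of all features. Both same-sequence pairs, of Selp and of Thbs1, are among them, so the count is of features and not of separate genes. The calls rested on few arrays. The Itga2b call held without young bone 2, old marrow 1, old marrow 2 or old marrow 3 and was lost without any of the other 5 (limma adjusted p between 0.0583 and 0.137). Its lowest value, 0.29, came without young bone 3. The Selp call held without young bone 2, old marrow 1 or old marrow 3 and was lost without the others (limma adjusted p between 0.0713 and 0.2), with its lowest value, 0.22, again without young bone 3. The Pf4 call held without young marrow 1, old marrow 1 or old marrow 3 and was lost without the others, with its largest adjusted p, 0.237 at a value of 0.31, without young marrow 2 and its lowest value, 0.26 (limma adjusted p = 0.065), without young marrow 3.

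These calls also rested on the reading. Under the channel reading the averages were -0.06 for Itga2b, 0.01 and 0.01 for Selp, 0.09 for Clec1b, -0.13 and -0.13 for Thbs1, and 0.19 and -0.03 for Pf4. None of the 8 member features passed there by limma, at the adjusted threshold or at an unadjusted p under 0.05, and 0 of all features passed (4.7% at an unadjusted p under 0.05). On the 6 unswapped arrays, where the readings are the same, Itga2b stood at 0.40 (limma adjusted p = 0.072), Selp at 0.29 and 0.31 and Pf4 at 0.50 for its first feature (limma adjusted p = 0.0649). There 0 member features passed by limma, where 0.712% of features were called higher and 0.26% lower. An unadjusted p under 0.05 was found for 5 member features, both of Selp among them (16.3% of all features). On those arrays castrated RNA was always in Cy5, so that castration and dye cannot be told apart and their direction supports neither reading. Under the channel reading the same averages reappear as the dye term, 0.45 for Itga2b (limma adjusted p = 0.0281), 0.30 for the second Selp feature (limma adjusted p = 0.0831) and 0.30 for the first Pf4 feature (limma adjusted p = 0.199).

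**Figure D3:**
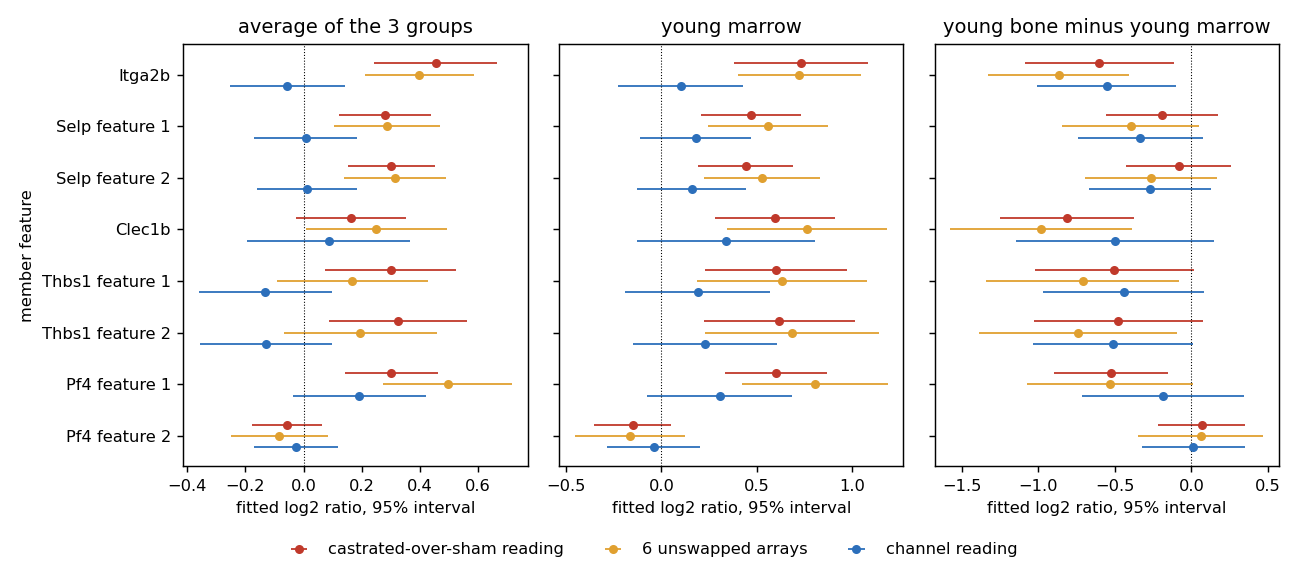
Fitted log2 ratio of each member feature with its 95% interval, for the average of the 3 groups, for young marrow and for young bone minus young marrow. Colours give the castrated-over-sham reading, the 6 unswapped arrays alone and the channel reading. The average of Itga2b lies at 0.45, 0.40 and -0.06 in these, while its difference between young bone and young marrow lies below 0 in all of them.

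Taken alone, young marrow gave the largest fitted ratios. They were 0.73 (SE 0.16, limma adjusted p = 0.0704) for Itga2b, 0.60 (SE 0.12, limma adjusted p = 0.0537) for the first Pf4 feature and 0.60 (SE 0.14, limma adjusted p = 0.0962) for Clec1b. Thbs1 stood at 0.60 and 0.62 and Selp at 0.47 and 0.44. None of the 8 member features passed the adjusted threshold by limma in young marrow, where 0.732% of features were called higher and 0.113% lower. With the replicate number as a block, 5 of them passed. These were Itga2b at 0.78 (limma adjusted p = 0.00982), both Selp features, Clec1b and the first Pf4 feature. More features of the whole array passed in that fit too, as counted in the last section. The labels do not say that same-numbered arrays belong together. Deviations of same-numbered arrays correlated above 0 throughout only between young marrow and old marrow, which share the number of the swapped array. Without the block, 7 member features, both same-sequence pairs among them, had an unadjusted p under 0.05, against 10.5% of all features, and the second Pf4 feature stood at -0.15. Which arrays entered the fit moved the adjusted p both ways. Without young marrow 3 it was 0.341 for Itga2b at 0.76, 0.341 for the first Pf4 feature at 0.43, 0.554 for Clec1b at 0.41, 0.606 and 0.608 for Selp at 0.39 and 0.36, and 0.763 and 0.794 for Thbs1 at 0.48 and 0.49, all by limma. Without young marrow 2 it was 0.463 for Itga2b at 0.82 and 0.508 for the first Pf4 feature at 0.62, and Thbs1 stood at 0.89 and 0.96 (limma adjusted p = 0.324 and 0.281). Conversely, without old marrow 3, which only feeds the shared estimate of the spread and the dye term, Itga2b stood at 0.74 (limma adjusted p = 0.0322), the first Pf4 feature at 0.61 (limma adjusted p = 0.0276) and Thbs1 at 0.58 and 0.59 (limma adjusted p = 0.0271 and 0.0329). In that fit 138 of the 8885 features passed in young marrow. Itga2b also passed without young bone 2, at 0.71 (limma adjusted p = 0.0444), and without young bone 3, at 0.68 (limma adjusted p = 0.0356). The first Pf4 feature also passed without old marrow 1, at 0.60 (limma adjusted p = 0.0438). Over all fits that left out 1 array, 0 to 138 features of the array passed in young marrow. Under the channel reading the young marrow values were smaller, 0.10 for Itga2b, 0.18 and 0.16 for Selp, 0.34 for Clec1b, 0.19 and 0.23 for Thbs1 and 0.31 for the first Pf4 feature, and all 7 kept a sign above 0. Of the young marrow arrays only young marrow 2 differs between the readings. In the channel reading 0 member features passed by limma, and 0 had an unadjusted p below 0.05 (0.754% of all features).

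In young bone and old marrow no member passed by limma. In young bone 0.225% of features were called higher and 0.0338% lower, and both Selp features had an unadjusted p under 0.05 (8.78% of all features), with fitted ratios of 0.28 and 0.36. Without young bone 3 these stood at 0.07 and 0.17 (limma adjusted p = 0.981 and 0.866), and on the unswapped arrays at 0.17 and 0.27 (limma adjusted p = 0.781 and 0.615). The other young bone ratios were 0.13 for Itga2b, 0.10 and 0.14 for Thbs1, 0.08 and -0.08 for Pf4 and -0.21 for Clec1b. Only Clec1b and the second Pf4 feature had young bone ratios below 0 in this reading, whereas in the channel reading Itga2b, Selp and Thbs1 lay below 0 as well. Without young bone 3, Itga2b in young bone stood at -0.25. In old marrow 0.608% of features were called higher and 0.124% lower, and Itga2b alone had an unadjusted p under 0.05 (18.2% of all features), at 0.50 (SE 0.16, limma adjusted p = 0.205). Clec1b stood at 0.10, Selp at 0.09 and 0.10, the Pf4 features at 0.23 and 0.07. Thbs1 stood at 0.20 and 0.21 in old marrow and moved to -0.02 and -0.01 without old marrow 2. It passed at 0.48 and 0.50 (limma adjusted p = 0.0366 and 0.0418) without old marrow 3, so these values were set by single arrays. Without old marrow 3, 1332 of the 8885 features passed in old marrow.

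Young bone was then set against young marrow directly. Before any fit, 3 member features had all young marrow arrays above all young bone arrays, namely Clec1b, the first Thbs1 feature and the first Pf4 feature, against 7.4% of all features. None had the reverse order, which 4.01% of features had. Under the channel reading the order held for none of the members (3.09% of all features), since young marrow 2 then changes sign. The fitted difference, young bone minus young marrow, was -0.81 for Clec1b (95% interval -1.25 to -0.37, unadjusted p = 0.00189, limma adjusted p = 0.873), the 16th smallest p of the 8885 features. It was -0.60 for Itga2b (95% interval -1.09 to -0.11, limma adjusted p = 0.873) and -0.52 for the first Pf4 feature (95% interval -0.90 to -0.15, limma adjusted p = 0.873). These 3 were the members with an unadjusted p under 0.05, against 5.12% of all features, and 0 features of the array passed the adjusted threshold by limma (455 at an unadjusted p under 0.05). The difference between the tissues was therefore not past the adjusted threshold for any member. It also moved with single arrays. For Itga2b it ran from -0.92 without young bone 3 to -0.36 without young bone 2, for the first Pf4 feature from -0.70 without young marrow 1 to -0.34 without young marrow 3, and for Clec1b from -0.94 without young bone 3 to -0.60 without young marrow 3.

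Thbs1 stood at -0.50 and -0.48 in this contrast and its intervals reached 0.02 and 0.07. Selp stood at -0.19 (95% interval -0.56 to 0.17) and -0.08 (95% interval -0.43 to 0.26), so a difference of up to those bounds remains possible for P-selectin. The second Pf4 feature stood at 0.07. For the 7 features below 0 the sign of the fitted difference, though not the order of the single arrays, was the same in each reading. The readings share the values of the 6 unswapped arrays, so the shared sign does not come from separate data. Under the channel reading Clec1b stood at -0.50, Itga2b at -0.55, the Thbs1 features at -0.44 and -0.51, the Selp features at -0.33 and -0.27 and the first Pf4 feature at -0.18. On the unswapped arrays Clec1b stood at -0.98 and Itga2b at -0.87. The second Selp feature turned to 0.02 without young bone 2 and to 0.01 without young marrow 3.

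Young bone was set against old marrow in the same way. The fitted difference, young bone minus old marrow, was -0.37 for Itga2b, -0.32 for Clec1b, -0.15 for both Pf4 features, -0.10 and -0.07 for Thbs1, and 0.19 and 0.26 for Selp. Selp was thus the gene with a ratio farther above 0 in young bone than in old marrow in this reading, whereas in the channel reading its differences were -0.15 and -0.10. In the castrated-over-sham reading no member passed by limma, where 0.0113% of features were called higher and 0 lower, and 0 members had an unadjusted p under 0.05 (6.63% of all features). For Itga2b the 95% interval ran from -0.86 to 0.12 in that reading. Under the channel reading its difference was -0.63 (95% interval -1.09 to -0.18, unadjusted p = 0.0114, limma adjusted p = 0.997). On the unswapped arrays it was -0.75 (95% interval -1.21 to -0.29, unadjusted p = 0.00544, limma adjusted p = 0.942). No other member feature had an unadjusted p under 0.05 in either of these fits. No member had all old marrow arrays above all young bone arrays, which 3.15% of features had, and young marrow was not tested against old marrow. The second Pf4 feature was the one member with all old marrow arrays above all young marrow arrays (8.84% of all features), although its ratios there were no higher than 0.13, and no member had the reverse order (11.8% of all features).

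The members are a small share of the platelet programme, so 6 lists were read beside them. Of these, 5 hold genes of the lineage and 1 holds ligands and binding partners of the members, not chosen as genes of the lineage. Together the lists held 25 measured genes that are not members. In the average, 0 of the 25 were called higher and 0 lower by limma, and their median was -0.04, against 0.29 for the 5 members and -0.004 for all features. In young marrow, 1 was called higher and 1 lower, 12 of 25 stood above 0 and the median was -0.01, against 0.60 for the members. Under the channel reading the median of the 5 members was 0.009 in the average and 0.17 in young marrow. That of the 25 other genes was -0.02 and 0.001. A median over 5 genes chosen with earlier results known is a description.

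Among the adhesion receptors, 4 of 14 listed genes were measured, 3 of them members. The fourth, Cd9, a tetraspanin of the platelet membrane, stood at -0.06 in the average and 0.02 in young marrow. Among the granule proteins, 5 of 14 were measured, with Pf4 and Thbs1 as the members. Clu encodes clusterin, a chaperone released from platelet granules and made by many other cells. It gave 0.55, 0.58 and 1.01 in young marrow in its first feature and 0.66, 0.51 and 1.05 in its second. In young bone the first feature gave 0.04, -0.16 and 0.56, and in old marrow 0.10, 0.00 and 0.23. All 3 young marrow arrays of clusterin were high, as they were for the 7 member features other than the second Pf4 feature. Clu rose in young marrow, by 0.73 in the feature that passed (SE 0.14, limma adjusted p = 0.0456), and stood at 0.30 under the channel reading (limma adjusted p = 1.0) and 0.86 on the unswapped arrays (limma adjusted p = 0.117). Sparc, a matrix protein of platelet granules and of bone-forming cells, stood at 0.58 in young marrow (limma adjusted p = 0.407), while Srgn, the granule proteoglycan serglycin, stood at -0.04.

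The medians of the other lists in young marrow lay between -0.13 and 0.07, against 0.60 for the members, although single genes stood higher. Of the genes of activation and signalling, 7 of 19 were measured and 0 were called by limma in the average or in young marrow. In young marrow 5 of the 7 stood above 0. F2rl3, a thrombin receptor, stood at 0.39 there, P2rx1 at 0.30 and Plek, a kinase substrate of activated platelets, at 0.22. Fcer1g, the signalling chain of the collagen receptor and of myeloid Fc receptors, stood at -0.37 and Lcp2, an adaptor, at -0.13. Of thrombopoietin signalling and the transcription factors, 4 of 13 were measured and 0 were called. In the average Runx1 stood at 0.10, Jak2 at 0.01, Mafg at -0.14 and Tal1 at -0.16.

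Of the cytoskeleton of platelet formation and granule traffic, 6 of 12 were measured, 0 were called and 1 stood above 0 in the average. That gene was Tpm4, a tropomyosin of platelets, at 0.25 in the average and 0.44 in young marrow (limma adjusted p = 0.199). Myh9, the non-muscle myosin heavy chain of platelets, stood at -0.20 and -0.37 (limma adjusted p = 0.119 in young marrow), Cdc42 at -0.14 in the average and Snap23 at -0.09. Of the ligands and partners of the members, 4 of 10 were measured. Fn1 encodes fibronectin, a matrix ligand of integrins. Its first feature gave -0.75, -0.54 and -0.91 in young marrow and 0.51, -0.08 and 0.42 in young bone. All young bone arrays thus lay above all young marrow arrays, as for 4.01% of all features. Of the 8 member features 0 had this order and 3 had the reverse order. Fn1 fell in young marrow, at -0.68 in the feature that passed (SE 0.11, limma adjusted p = 0.0183), with -0.31 under the channel reading (limma adjusted p = 1.0) and -0.83 on the unswapped arrays (limma adjusted p = 0.162). Cd47, which binds thrombospondin-1, stood at -0.06 in the average, Itgb1 at 0.00 and Fgb, a chain of the ligand of Itga2b, at -0.04.

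**Figure D4:**
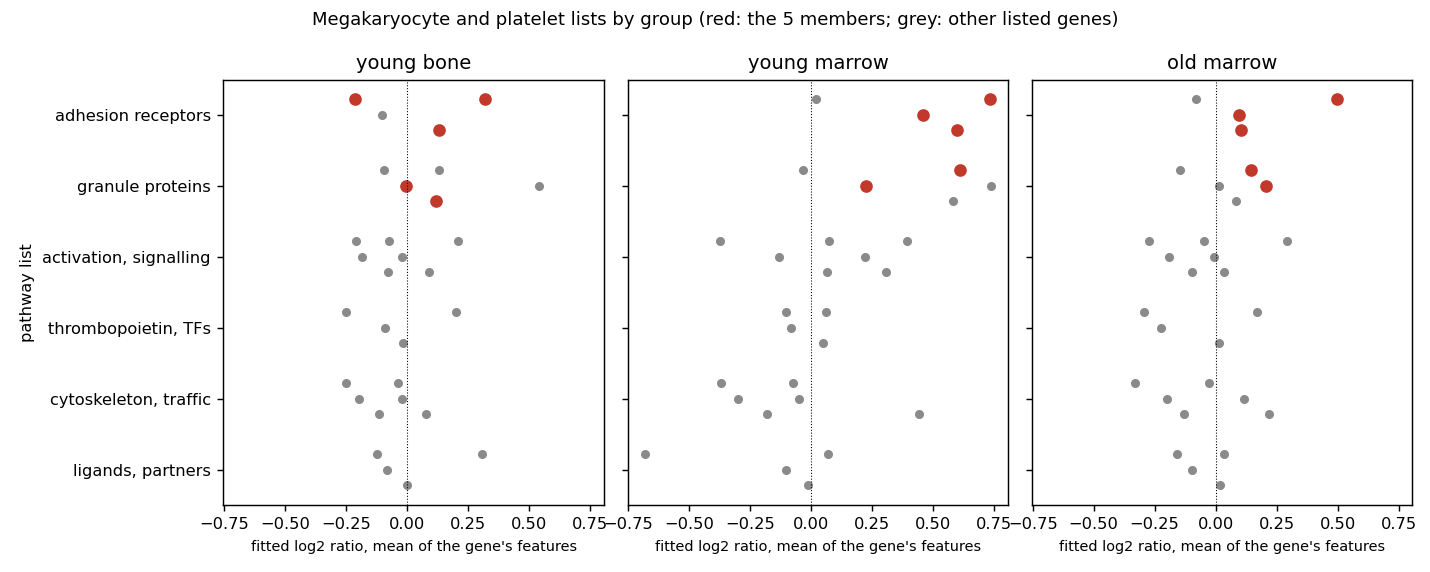
Fitted log2 ratio of each measured gene of the 6 lists of platelet genes and binding partners in young bone, young marrow and old marrow. There is 1 point a gene (mean of its features), with the 5 members in red and the other genes in grey. In the young marrow panel the members lie to the right of most other genes, whose median is -0.01. The lowest member point there is Pf4, a mean of its disagreeing features, with Clu, Sparc, Tpm4, F2rl3 and P2rx1 to the right of it, and Fn1 lies farthest to the left.

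Genes of several other cell types moved with castration on the same arrays, and their part in the platelet gene results was not tested. The median of the B lymphocyte list (5 of 13 genes measured) lay between 0.49 and 0.99 on every array, and Cd79b, Vpreb3, Blk and Blnk rose in the average. The median of the granulocyte list (4 of 13 measured) lay between -0.68 and -0.18 on every array, and Prtn3, Ctsg, Mmp8 and Padi4 fell. The median of the monocyte and macrophage list (7 of 11 measured) lay between -0.435 and 0.0 on the arrays. Of this list Mpeg1, Ccr2 and Lyz2 fell, while its other measured genes were not called and stood between -0.09 and 0.09 in the average. These calls were made in the castrated-over-sham reading, and 0 features passed in the channel reading.

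P-selectin and thrombospondin-1 are also made by endothelial or stromal cells. The endothelial list (5 of 18 measured) had array medians of 0.23, 0.26 and 0.07 in young marrow, -0.01, 0.12 and 0.12 in young bone, and -0.32, -0.03 and 0.13 in old marrow. In the average 1 of the 5, Kdr, a receptor for vascular endothelial growth factor, was called higher, at 0.28, with 0.01 under the channel reading and 0.29 on the unswapped arrays. The osteoblast and stroma list (7 of 13 measured) had array medians of 0.37, 0.10 and 0.49 in young marrow and 0.16, 0.80 and 0.21 in young bone, and -0.20 to 0.50 in old marrow, with 0 of 7 called in the average by limma. Both lists had medians above 0 on the young marrow arrays, as 7 of the 8 member features did in their ratios, and the part of either in the member ratios was not tested. Of the erythroid list 4 of 11 genes were measured and of the stem and progenitor list 2 of 9, and 0 of these were called in the average by limma. No gene of the mast cell and basophil list was measured.

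The pattern of each member over the 9 arrays was set against that of every named feature with a value on all of them, by the root-mean-square difference of the ratios. For Itga2b the nearest of 5568 features were those of Nfkbie, Ano6 and Amn1, at 0.22, 0.22 and 0.25. For both Selp features the nearest was Tmsb10, at 0.11. For Clec1b they were Ifi47, Gng11 and Tpm4, at 0.17, 0.19 and 0.22, of which Tpm4 is on the cytoskeleton list. For both Thbs1 features they began with AI413908 and Gpatch2, at 0.25 and 0.26 for the first. For the first Pf4 feature they were both features of Hmgn3 at 0.18 and Cxcl12 at 0.19, of which Cxcl12 is on the osteoblast and stroma list. For the second Pf4 feature they were Ppp1r12a, Scyl3 and Dclre1a, at 0.09 each. Among the members, Clec1b and the first Pf4 feature were the most alike, at 0.27, with the first Pf4 feature 27th of 5568 for Clec1b and Clec1b 22nd for the first Pf4 feature. Next came the first Selp feature, 52nd both for Itga2b and for the first Pf4 feature, while for that Selp feature Itga2b was 1263rd and the first Pf4 feature 670th of 5567. Features with ratios near 0 have many near neighbours by this measure, as the second Pf4 feature shows.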

How the data were processed

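The values used were those of the series table, log ratios of dual-channel arrays deposited by the authors and read as log2. Their log base, direction, background treatment and normalization are not given in the sources used here. Per the labels, cDNA with aminoallyl nucleotides was made from total RNA and coupled to either dye. Each array carried 8290 to 10995 values. The SD was 0.192 to 0.294 on 8 arrays and 0.455 on old marrow 1. Intensities were not used here, so that precision is limited by the number of arrays.

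Features with a value on at least 2 arrays of each group and on at least 1 swapped array were tested (8885, of which 7544 on all 9 arrays). Of the 11552 features, 8050 were annotated with 1 gene, 672 with several and 2830 with none, and 7880 of the 8050 matched the RefSeq gene table by gene ID. A limma 3.58.1 fit (R 4.3.3) used all 9 arrays, a coefficient for each group and 1 dye term shared by the groups, with Benjamini-Hochberg adjustment over all features and a threshold of 0.05 in each of 6 comparisons. SD is across arrays and SE is that of the fit. The replicates are mouse pairs. The fit was tested on simulated data. The alternatives were the channel reading, the unswapped arrays, no dye term, a replicate block, median centring with and without equal spread, array weights, features on all 9 arrays and leaving out each array.

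The members, the lists, the motifs and the readings were chosen with earlier results of these data known. Named beside the members were list genes past the threshold in any comparison and the 4 of each platelet or partner list with the smallest p in the average. At most 4 called genes of each other cell type list and the 3 features nearest each member were named as well. Srgn and P2rx1 were named after their values were seen.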

Additional observations from a re-analysis of the deposited data

How the results depend on the processing

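The number of features called over the whole array was 359 in the average (179 higher, 180 lower), 23 in young bone, 75 in young marrow, 65 in old marrow, 0 for young bone minus young marrow and 1 for young bone minus old marrow. Under the channel reading these counts were 0, 0, 0, 0, 0 and 0 by limma, on the unswapped arrays 86, 1, 3, 13, 0 and 0, and with array weights 1093, 76, 1617, 394, 5 and 2. Without the dye term young bone had 50 and young bone minus old marrow 0. Centring with equal spread gave 1 in young bone (0 higher, 1 lower, against 20 and 3), 160 in young marrow (102 and 58, against 65 and 10), 14 in old marrow and a split of 236 and 158 in the average. The labels do not say that same-numbered arrays belong together. The swapped array is number 2 in both marrow groups and number 3 in young bone, and the part of this in the correlations that follow was not tested. The deviations of same-numbered arrays correlated at 0.27 to 0.60 between young marrow and old marrow, which were not compared, but at -0.37 to -0.08 between young bone and young marrow and at -0.10 to 0.38 between young bone and old marrow, and arrays correlated best with their own number in 8 of 18 cases. With a replicate block the counts were 52 in young bone, 119 in young marrow and 0 for young bone minus old marrow. Leaving out 1 array gave 96 (without young marrow 2) to 574 (without old marrow 3) in the average, 1 (without young bone 3) to 80 (without old marrow 3) in young bone, 0 (without young marrow 2) to 138 (without old marrow 3) in young marrow, 10 (without old marrow 2) to 1332 (without old marrow 3) in old marrow, 0 to 0 for young bone minus young marrow and 0 to 31 (without old marrow 3) for young bone minus old marrow. Members whose sign turned under the channel reading were, in the average, Itga2b (-0.056) and Thbs1 (-0.13 and -0.13), in young bone Itga2b (-0.45), Selp (-0.15 and -0.11) and Thbs1 (-0.25 and -0.28), in old marrow Selp (-0.007 and -0.014), Thbs1 (-0.33 and -0.34) and the second Pf4 feature (-0.011), and for young bone minus old marrow Selp (-0.15 and -0.10) and Thbs1 (0.077 and 0.053). On the unswapped arrays the sign turned for Itga2b (-0.14) and Thbs1 (-0.075 and -0.055) in young bone and for Thbs1 (-0.055 and -0.045) in old marrow, and with equal spread for the second Thbs1 feature in young bone minus old marrow (0.016). Leaving out 1 array ranged from -0.25 to 0.35 for Itga2b in young bone, -0.025 to 0.17 for the first Selp feature and -0.018 to 0.48 and -0.01 to 0.50 for Thbs1 in old marrow, -0.24 to 0.021 for the second Selp feature and -0.016 to 0.14 for the second Pf4 feature in young bone minus young marrow, and -0.40 to 0.083 and -0.38 to 0.12 for Thbs1 in young bone minus old marrow. In the average the first Selp feature passed without the dye term, with the replicate block, with either centring and with array weights, at 0.23 to 0.31, and with array weights so did both Thbs1 features, at 0.31 and 0.32. In young marrow Itga2b passed without the dye term, just under the threshold (limma adjusted p = 0.0484, the 99th smallest p of the 8885 features). Itga2b, Clec1b and the first Pf4 feature passed with equal spread, where 160 features of the array passed. The replicate block called 119 features there. Among them were Itga2b (0.78, limma adjusted p = 0.00982), both Selp features (0.48 and 0.45), Clec1b (0.61) and the first Pf4 feature (0.59). Array weights called 1617 features there, among them all of these and Thbs1. The cause of these changes was not tested. Keeping only features on all 9 arrays moved no member across the threshold. The SD of old marrow 1, wider than that of the other arrays, and the 3 arrays of each group limit the precision.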
